A study of Mus musculus with 8 samples.

Results

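The IGHV2 family, also called VHQ52, is a family of heavy-chain variable gene segments at the end of the mouse heavy-chain locus that lies nearest the D segments. Its members here are every segment whose name starts with IGHV2- in the deposited read counts, 10 of 159 VH segments, and every complete heavy-chain junction sequence whose listed V genes all belong to the family, 166 of 3882. The members were taken by name and not by any measured value. Of the 10 segments, 8 had at least 10 reads over the 8 samples and were tested. IGHV2-1, a pseudogene, had 1 read in control 4, and IGHV2-7 had 1 read in control 2. The 8 tested segments held all but 2 of the family's 17274 reads, out of 278933 reads on all VH segments. Where several samples are given in a row, they stand in the order of their replicate numbers, 1 to 4.

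The study sequenced poly-A RNA of pro-B cells from bone marrow, with 4 samples labelled control and 4 labelled Setd2 knockout, all from 8-week-old untreated mice and 1 sequencing batch. The cells had been sorted as B220+, Cd43+, IgM- and CD25-. The labels give neither the strain and sex nor the Cre driver or allele behind the knockout, and they do not tie replicate numbers to animals. A p-value therefore sets a difference between the groups against the spread of these samples only, and part of that spread may be technical. The deletion itself was not checked, since Setd2 RNA was not analysed here.

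During B-cell development a pro-B cell first joins a D to a JH segment and then joins a VH segment to that DJ unit. The junction, or CDR3, runs from the conserved cysteine codon of the V segment to the conserved tryptophan codon of the J segment. Both codons are counted in it here, and it marks a clone. VHQ52 segments are interleaved with those of the VH7183 family, named IGHV5, and both are known to be joined often early in life, whereas the VHJ558 family, named IGHV1, fills the far end of the locus and depends more on locus contraction to reach the D segments. Setd2 encodes a histone methyltransferase that marks the bodies of transcribed genes.

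The close similarity of the family's members sets what can be told apart, so the V regions of its closest pair are printed first. All lie on the minus strand of chromosome 12 in mm10, with sequences from the GENCODE M21 transcripts. IGHV2-2 (chr12:113588267-113588559) and IGHV2-4 (chr12:113653291-113653583) matched at 97.95% of 293 bases. Capitals mark the 6 bases at which they differ:
IGHV2-2: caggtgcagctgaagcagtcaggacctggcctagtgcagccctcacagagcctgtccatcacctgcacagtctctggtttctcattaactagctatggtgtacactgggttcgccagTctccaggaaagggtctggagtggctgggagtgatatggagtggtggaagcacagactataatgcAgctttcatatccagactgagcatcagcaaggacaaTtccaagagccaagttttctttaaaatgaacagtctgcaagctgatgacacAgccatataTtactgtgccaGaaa
IGHV2-4: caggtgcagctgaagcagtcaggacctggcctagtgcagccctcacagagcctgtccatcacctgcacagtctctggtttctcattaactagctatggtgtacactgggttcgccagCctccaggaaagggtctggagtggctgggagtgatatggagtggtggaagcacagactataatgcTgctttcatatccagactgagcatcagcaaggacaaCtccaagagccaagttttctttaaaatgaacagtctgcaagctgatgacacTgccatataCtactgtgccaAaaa
The next closest pairs were IGHV2-5 with IGHV2-4 (97.6%) and IGHV2-5 with IGHV2-2 (96.9%), and the least alike of the 28 pairs were IGHV2-9-1 and IGHV2-5 (87.7%). A read of 75 bases that fits more than 1 VH transcript cannot be given to a single gene. Of the 219 windows of 75 bases in IGHV2-2, 67 were identical to a window of another VH transcript, 43 of them in IGHV2-4 and 24 in IGHV2-5. The count was 53 for IGHV2-4, 34 for IGHV2-5, 31 for IGHV2-6-8, 23 for IGHV2-9-1, 6 for IGHV2-6, 2 for IGHV2-9 and 0 of 216 for IGHV2-3. The sources used here do not give how such reads were counted, so single-gene values of IGHV2-2, IGHV2-4 and IGHV2-5 in particular are uncertain.

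The last bases of each V segment are the ones a junction can carry. They are shown from the segment nearest the D segments to the one farthest away, with capitals from the cysteine codon to the end of the annotated segment:
IGHV2-2: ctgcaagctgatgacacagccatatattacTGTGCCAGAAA
IGHV2-3: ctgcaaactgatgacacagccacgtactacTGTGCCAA
IGHV2-4: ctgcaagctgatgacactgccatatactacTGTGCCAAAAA
IGHV2-5: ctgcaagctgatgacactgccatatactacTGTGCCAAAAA
IGHV2-6: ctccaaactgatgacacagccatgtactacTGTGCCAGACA
IGHV2-9-1: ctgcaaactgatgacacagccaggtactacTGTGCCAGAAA
IGHV2-6-8: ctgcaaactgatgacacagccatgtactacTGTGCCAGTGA
IGHV2-9: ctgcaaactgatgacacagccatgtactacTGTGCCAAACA
IGHV2-2, IGHV2-6 and IGHV2-9-1 open the CDR3 with tgtgccaga, IGHV2-4, IGHV2-5 and IGHV2-9 open it with tgtgccaaa, and IGHV2-6-8 opens it with tgtgccagt. The annotated end of IGHV2-3 stops 1 base short of this.

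Reads on the heavy-chain locus numbered 64488 to 89908 per control sample and 12102 (knockout 3) to 100600 (knockout 4) per knockout sample, and VH reads 35505 to 53071 and 1637 to 56542. Markers of other B-lineage stages were present in every sample. All 7 switched and IGHD constant-region genes had reads in all 8 samples, and together they made up 52.0% to 58.6% of constant-region reads in the controls and 7.31% to 44.6% in the knockouts. IGHG, a mark of cells after class switching, stood at 20.8% to 35.5% in the control samples against 2.66% to 14.9% in the knockout samples. IGHA, also a switched constant region, overlapped between the groups, at 17.1% to 33.3% in the controls and 4.02% to 34.1% in the knockouts. Light-chain locus reads, which mark stages after the pro-B cell, numbered 84230 to 118807 in the controls and 5956 to 144978 in the knockouts. Of the 166 IGHV2 junctions, 20 listed a constant region, 17 of them IGHA, 3 IGHG (all in control 1) and 0 IGHM. The rates over junctions of all families are not given here, so these counts cannot be called particular to IGHV2. The part of other cells in the results below was not tested, and in these bulk samples fewer cells that use a segment and less RNA per cell cannot be told apart.

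The share of VH reads that fell on the IGHV2 family was compared between the groups. It was 3.83%, 6.05%, 5.44% and 4.51% in the controls and 27.9%, 4.79%, 9.41% and 0.446% in the knockouts. The controls were close together, whereas knockouts 1 and 3 lay above all controls, knockout 2 among them and knockout 4 below them. Counting error was small beside this spread: the 95% Wilson interval was 27.3 to 28.4 in knockout 1 and 0.394 to 0.504 in knockout 4, which covers counting error only. The means were 4.96% ± 0.984 (SD, n = 4) in the controls and 10.6% ± 12.1 (SD, n = 4) in the knockouts, and the difference did not pass (two-sided exact permutation p = 0.543, adjusted over 11 readouts 0.746). Without knockout 1 the difference of 5.67 percentage points was -0.0787, and as a difference of log2 shares over all 8 samples it was -0.01. The difference in percentage points was 1.73 with IGHV2-2 left out, 0.689 with IGHV2-2 and IGHV2-4 left out, and 1.55 as a share of all heavy-chain locus reads.

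**Figure D1:**
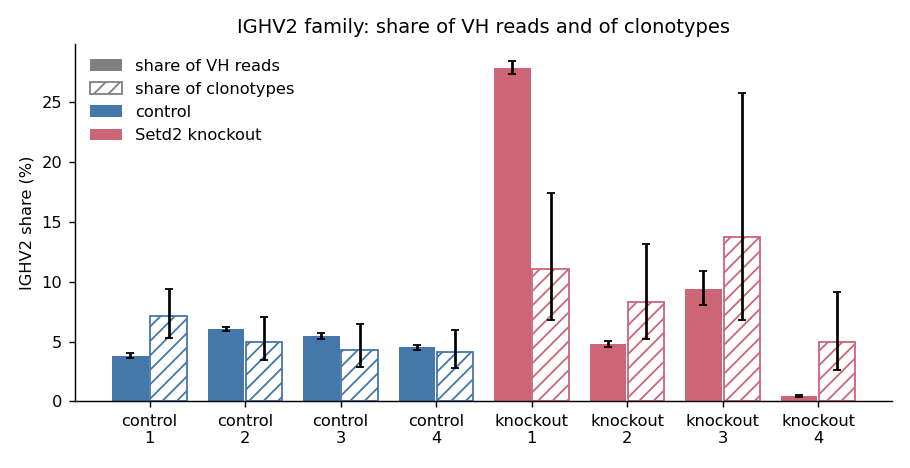
IGHV2 share in percent for each of the 8 samples, with filled bars for the share of VH reads, hatched bars for the share of clonotypes and error bars for 95% Wilson intervals. The 4 controls lie between 3.83% and 6.05% by reads, knockout 1 stands at 27.9% and knockout 4 at 0.446%, while the same samples stand at 11.03% and 4.97% by clonotypes.

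The 3 segments IGHV2-2, IGHV2-4 and IGHV2-5 form the most similar part of the family. IGHV2-2 (chromosome 12, 113588267 to 113588700 in the deposited coordinates, 106 kb from the nearest D segment with reads) was the most-read member, with 8064 reads. It held 1.17%, 2.45%, 2.29% and 1.59% of VH reads in the controls and 16.3%, 2.24%, 4.64% and 0.0796% in the knockouts. Knockout 1 was far above every other sample and knockout 4 far below, so the groups overlapped. Its log2 fold change of knockouts over controls was 1.63 (SE 1.02), which did not pass the quasi-likelihood test of edgeR (adjusted p = 0.311 by Benjamini-Hochberg over 130 VH genes). Without knockout 1 the log2 fold change was 0.29.

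IGHV2-4 (113653291 to 113653583, 171 kb) held 0.354%, 0.680%, 0.639% and 0.493% of VH reads in the controls and 3.99%, 0.617%, 1.71% and 0.0230% in the knockouts. The samples stood in the same pattern as for IGHV2-2, with knockout 1 highest and knockout 4 lowest. Its log2 fold change was 1.55 (SE 1.01, edgeR adjusted p = 0.331), and 0.46 without knockout 1. IGHV2-5 (113685482 to 113685774, 203 kb) held 0.715%, 0.825%, 0.361% and 0.444% in the controls and 1.94%, 0.675%, 1.89% and 0.0867% in the knockouts, so that knockouts 1 and 3 were nearly level and above all controls. Its log2 fold change was 0.95 (SE 0.853, edgeR adjusted p = 0.489), 0.53 without knockout 1 and 0.61 without knockout 3.

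The other 5 tested segments share less sequence with IGHV2-2, and their values in the knockouts were mixed. IGHV2-6 (113716672 to 113716962, 234 kb) had the lowest log2 fold change of the 8. It held 0.113%, 0.490%, 0.513% and 0.683% of VH reads in the controls and 0.0940%, 0.00894%, 0.122% and 0.0442% in the knockouts. Controls 2, 3 and 4 were above all knockouts, and control 1 lay between knockouts 1 and 3. In reads these were 44, 260, 182 and 309 in the controls and 24, 2, 2 and 25 in the knockouts, so that knockouts 2 and 3 each rested on 2 reads. The means were 0.450% ± 0.241 and 0.0673% ± 0.0505 (SD, n = 4 each), and the log2 fold change of -2.94 (SE 0.928) reached an unadjusted p of 0.00615 and an adjusted p of 0.0831 in the quasi-likelihood test of edgeR, which did not pass. Under the other scalings and filters its adjusted p ran from 0.0271 to 0.254, and it passed in 1 of these fits, that with all heavy-chain locus reads as the library size.

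IGHV2-3 (113611184 to 113611476, 129 kb) is a segment with no window of 75 bases in common with another VH transcript. It held 0.630%, 0.170%, 0.285% and 0.378% in the controls and 0.713%, 0.0849%, 0.244% and 0.0389% in the knockouts, with knockout 1 the highest sample and knockouts 2 and 4 the lowest. Its log2 fold change was -0.43 (SE 0.885, edgeR adjusted p = 0.809), -1.88 without knockout 1, and 0.43 with scaling by the trimmed mean of M values (TMM), 1 way to correct for a few dominant genes. IGHV2-9 (113879097 to 113879388, 397 kb), the tested member farthest from the D segments, held 0.133%, 0.185%, 0.338% and 0.398% in the controls and 0.243%, 0.0268%, 0.0611% and 0.0142% in the knockouts. Knockouts 2, 3 and 4 were below all controls and knockout 1 was among them. Its log2 fold change was -1.56 (SE 0.914, edgeR adjusted p = 0.279), and -3.42 without knockout 1.

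IGHV2-9-1 (113769857 to 113770142, 288 kb) was the second most read member with 2749 reads, and IGHV2-6-8 (113796138 to 113796430, 314 kb) the least read of the tested members with 332. IGHV2-9-1 held 0.646%, 1.14%, 0.873% and 0.449% of VH reads in the controls and 4.30%, 1.03%, 0.550% and 0.0778% in the knockouts. Knockout 1 was again the highest sample and knockout 4 the lowest. The log2 fold change was 0.95 (SE 0.934, edgeR adjusted p = 0.523) and turned to -0.49 without knockout 1. IGHV2-6-8 held 0.0717% to 0.149% in the controls and 0.321%, 0.107%, 0.183% and 0.0814% in the knockouts, with a log2 fold change of 0.74 (SE 0.738, edgeR adjusted p = 0.527) that was 0.13 without knockout 1. It was the 1 member of the 8 whose knockout 4 value lay within the control range, and its 46 reads there exceeded the 45 of IGHV2-2.

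**Figure D2:**
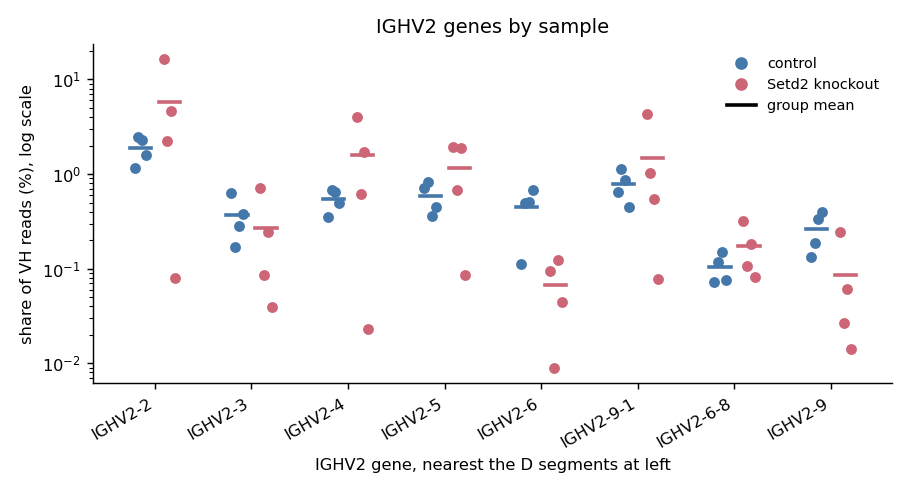
Share of VH reads in percent on a log scale for the 8 tested IGHV2 genes, ordered by distance from the D segments, with 1 point per sample and a line at each group mean. Knockout points spread over a wider range than control points for most genes, and those of IGHV2-6 lie between 0.00894% and 0.122%.

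Over the family, edgeR called 0 of the 8 tested segments, and it called 0 of all 130 VH genes (0%). At an unadjusted p under 0.05, 1 member (IGHV2-6) was lower in the knockouts and 0 were higher, where over all tested VH genes 26.2% were lower and 1.54% higher. By share of VH reads, 0 of the 8 members had every knockout under every control, a pattern shown by 24.6% of all tested VH genes, and 0 members and 0% of all had every knockout over every control. The log2 fold change was above 0 for 5 of 8 members and for 25.4% of all tested genes. DESeq2 called 0 members and 4.62% of all. With all heavy-chain locus reads as the library size edgeR called 1 member, IGHV2-6, and 20% of all, so that the members' share was not above the background. Scaling changed the split at an unadjusted p under 0.05: with TMM 4 members (IGHV2-2, IGHV2-4, IGHV2-5 and IGHV2-6-8) were higher and 0 lower, beside 10.8% and 8.46% of all tested genes. DESeq2 gave 5 members higher, these 4 and IGHV2-9-1, and IGHV2-6 lower, beside 13.1% and 10% of all.

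The median log2 fold change of the 8 members was 0.84, beside -0.82 for all 130 tested VH genes, -0.27 for 10 tested genes of IGHV5, -0.78 for 33 of the intermediate families and -1.11 for 79 of the distal families 1 and 8. Scaling moved these values together: with TMM the medians were 1.71 for IGHV2 and 0.18 for all, and with DESeq2 1.80 and 0.20. Without knockout 1 the medians were -0.18 for IGHV2 and -0.99 for all. The median of the members lay above that of all genes under each of these settings, and it was below 0 without knockout 1.

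**Figure D3:**
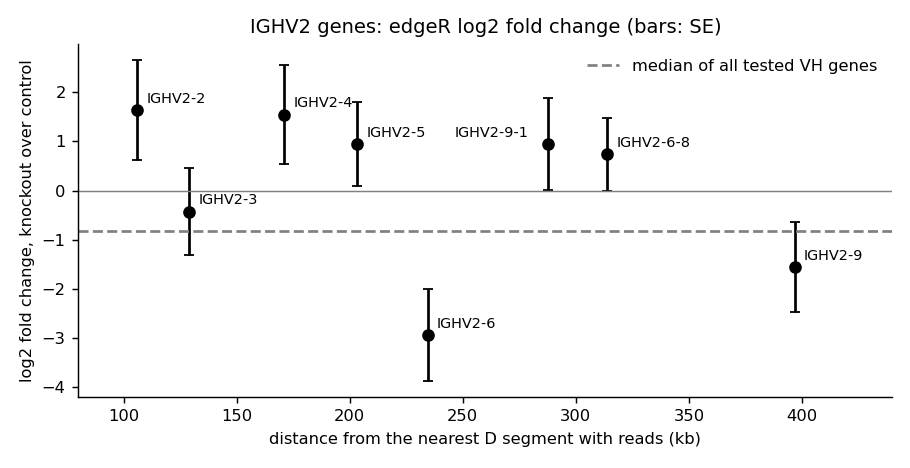
Log2 fold change of knockouts over controls (points) with its standard error (bars) from edgeR for the 8 tested IGHV2 genes, against distance in kb from the nearest D segment with reads. In all, 5 genes lie above 0 and 3 below, the dashed line marks the all-gene median of -0.82, and IGHV2-6 at -2.94 stands between neighbours at 0.95.

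The balance among members was looked at next, since a ratio of 2 segments within a sample does not depend on the total. IGHV2-4 reads divided by IGHV2-2 reads gave 0.303, 0.278, 0.280 and 0.310 in the controls and 0.245, 0.276, 0.368 and 0.289 in the knockouts. The highest ratio was 1.51 times the lowest, although IGHV2-2 reads themselves ran from 45 to 4158. Among the 28 pairs of tested members the next steadiest pair, IGHV2-9 and IGHV2-3, varied 5.62 times, and IGHV2-5 over IGHV2-2 varied 9.16 times. The pair with the steadiest ratio was thus the pair with the most similar sequence, as printed above, and shared 43 identical windows of 75 bases. Other pairs did not stand in the order of their similarity. IGHV2-5 and IGHV2-4, which matched at 97.6%, varied 7.77 times, and IGHV2-9 and IGHV2-3 matched at 95.2%. Whether reads of IGHV2-4 were counted on IGHV2-2, or the reverse, was not tested.

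**Figure D4:**
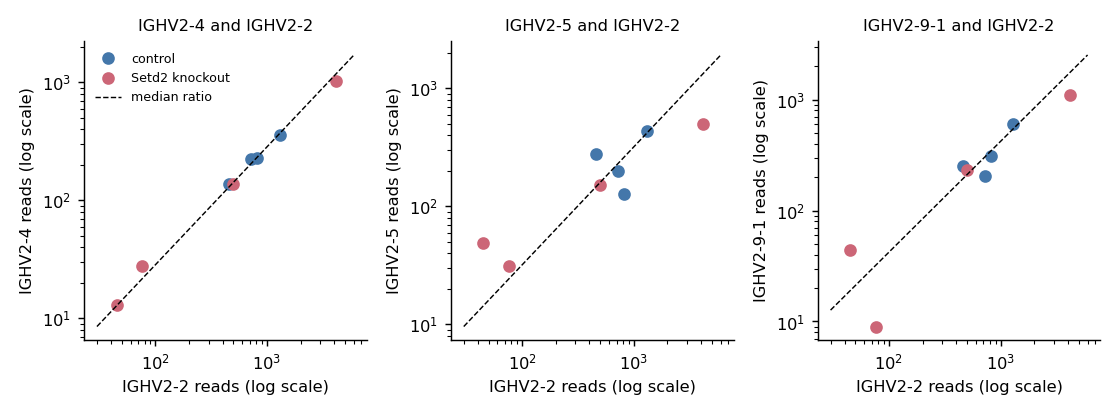
Reads of IGHV2-4, IGHV2-5 and IGHV2-9-1 against reads of IGHV2-2 in the 8 samples, on log axes, with a dashed line at the median ratio. The IGHV2-4 points follow the line over the whole range, whereas the IGHV2-5 and IGHV2-9-1 points scatter around it, with ratios to IGHV2-2 from 0.119 to 1.09 and from 0.118 to 0.978.

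The make-up of the family differed between samples. IGHV2-2 held 30.5%, 40.4%, 42.0% and 35.2% of IGHV2 reads in the controls and 58.4%, 46.7%, 49.4% and 17.9% in the knockouts. It was the most-read member everywhere except in knockout 4, where IGHV2-5 held 19.4% and IGHV2-6-8 18.3%. The share of the most-read member was 37.0% ± 5.23 in the controls and 43.5% ± 16.8 in the knockouts (SD, n = 4 each, two-sided exact permutation p = 0.486), and the gap of 6.44 percentage points became 14.4 without knockout 4 and 1.45 without knockout 1. IGHV2-6 held 2.94%, 8.10%, 9.42% and 15.1% of the family's reads in the controls but 0.337%, 0.187%, 1.30% and 9.92% in the knockouts.

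The assembled junctions give a count of different sequences in place of a count of reads. They were assembled from the same RNA, so whether a clone is found still depends on its RNA level and on depth. Of the 166 IGHV2 junctions, 51 rested on 1 read over the junction. Each different complete CDR3, compared by its bases, was counted as 1 clonotype and assigned to IGHV2 where all V genes its contig lists are of that family. IGHV2 clonotypes numbered 43, 29, 22 and 25 in the controls and 15, 16, 7 and 9 in the knockouts, so the groups did not overlap. Complete clonotypes of all families, at 855, 820, 665 and 801 against 194, 248, 73 and 226, did not overlap either. The ratio of geometric means of knockouts over controls for IGHV2 was 0.385 (two-sided exact permutation p = 0.0286, the smallest that 70 arrangements allow, adjusted over 11 readouts 0.157). The number depends on depth, and relative to heavy-chain locus reads the log2 difference of -1.38 was -0.42 (exact permutation p = 0.657). The samples did not stand in the order of their depth, however. Knockout 4 had the most heavy-chain locus reads of all samples, 100600, with 9 IGHV2 clonotypes, and knockout 3 the fewest, 12102, with 7. The part of depth in the difference was not tested.

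As a share of all clonotypes with a single V family, IGHV2 made up 7.10%, 4.99%, 4.31% and 4.11% in the controls and 11.03%, 8.33%, 13.7% and 4.97% in the knockouts. Knockouts 1, 2 and 3 were above all controls and knockout 4 was among them, with Wilson intervals as wide as 6.81 to 25.7 in knockout 3. The means were 5.12% ± 1.37 and 9.52% ± 3.74 (SD, n = 4 each), and the difference of 4.39 percentage points did not pass (two-sided exact permutation p = 0.0857, adjusted 0.314). With every clonotype that listed any IGHV2 gene counted, the difference was 1.98 (exact permutation p = 0.657), and with incomplete contigs included it was 2.25 (exact permutation p = 0.143). Without knockout 3 the difference of 4.39 was 2.99.

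The share by reads was then divided by the share by clonotypes. The ratio was 0.540, 1.21, 1.27 and 1.10 in the controls and 2.53, 0.575, 0.685 and 0.0896 in the knockouts. Knockout 1 lay above the range of the controls and knockout 4 below it, while knockouts 2 and 3 lay within it, near control 1. CDR3-spanning reads, which count only reads over the junction, put IGHV2 at 7.11%, 4.67%, 4.49% and 3.75% in the controls and at 13.9%, 11.9%, 13.7% and 2.21% in the knockouts. By this measure knockouts 1, 2 and 3 lay close together above all controls, and knockout 4 was below them. The means were 5.004% ± 1.46 and 10.4% ± 5.54 (SD, n = 4 each, two-sided exact permutation p = 0.143, adjusted 0.393), and the difference of 5.42 percentage points was 8.15 without knockout 4 and 1.68 with every clonotype that listed any IGHV2 gene (exact permutation p = 0.743).

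Most contigs could not be given to a single segment: 9 of the 166 clonotypes listed a single V gene. The lists fell into groups that follow the similarity of the sequences. A list naming IGHV2-2, IGHV2-4 or IGHV2-5 and none of the other 5 tested genes was found for 101 clonotypes, 71 of 119 in the controls (59.7%) and 30 of 47 in the knockouts (63.8%). The IGHV2-9-1 group held 34 clonotypes, 24 in the controls and 10 in the knockouts, or 20.2% and 21.3%. The group of IGHV2-6, IGHV2-6-8 and IGHV2-9 held 12, which were 10 in the controls and 2 in the knockouts, and IGHV2-3 alone was listed by 7, 4 in the controls and 3 in the knockouts. The remaining 12 listed mixed sets or none of the 8 tested genes.

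The first bases of the CDR3 divide the largest group further. Of its 101 clonotypes, 57 opened with tgtgccaga, the ending of IGHV2-2, and 27 with tgtgccaaa, that of IGHV2-4 and IGHV2-5. In the controls the former numbered 11, 7, 7 and 11 and the latter 9, 9, 2 and 3. In the knockouts they numbered 8, 5, 4 and 4 against 0, 1, 1 and 2. In knockout 1, where IGHV2-4 had 1018 reads and IGHV2-5 had 494, 0 of the 8 clonotypes of the group opened with the ending that IGHV2-4 and IGHV2-5 share. Trimming and added bases at the junction can also change these codons, so the opening does not assign a clonotype. Over all 166 clonotypes the CDR3 matched a germline IGHV2 ending over a median of 10 bases in both groups, of at most 11.

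The IGHV2 clonotype with the most CDR3-spanning reads in each sample is printed, since the V genes and JH genes these sequences list can be set side by side. In knockout 4, where 2 clonotypes had 4 reads each, the first by sequence is shown. Capitals mark the longest match to the CDR3 start of any of the 8 segments:
control 1: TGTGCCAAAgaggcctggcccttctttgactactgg
control 2: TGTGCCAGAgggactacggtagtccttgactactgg
control 3: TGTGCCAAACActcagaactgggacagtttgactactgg
control 4: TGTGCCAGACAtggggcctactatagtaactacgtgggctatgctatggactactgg
knockout 1: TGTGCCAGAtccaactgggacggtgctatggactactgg
knockout 2: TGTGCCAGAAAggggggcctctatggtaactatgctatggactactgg
knockout 3: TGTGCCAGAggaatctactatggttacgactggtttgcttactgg
knockout 4: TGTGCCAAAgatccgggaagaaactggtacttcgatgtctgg
They held 9 of 110, 11 of 80, 14 of 60 and 8 of 63 IGHV2 spanning reads in the controls and 27 of 102, 21 of 84, 4 of 13 and 4 of 20 in the knockouts. These are 8.18%, 13.8%, 23.3% and 12.7% in the controls and 26.5%, 25.0%, 30.8% and 20% in the knockouts, with a Wilson interval of 18.9 to 35.8 in knockout 1 and of 12.7 to 57.6 in knockout 3. All 4 knockout sequences listed the group of IGHV2-2, IGHV2-4 and IGHV2-5, and 0 of the 4 control sequences did. This contrast was not tested and depends on the measure of size: by contig reads a clonotype of the IGHV2-9-1 group in knockout 2 had 88 against 22 for the one shown. Over all clonotypes the group's shares in controls and knockouts were those given above, 59.7% and 63.8%. The listed JH gene was IGHJ2 in controls 1, 2 and 3 and IGHJ4 in control 4, and IGHJ4, IGHJ4, IGHJ3 and IGHJ1 in the knockouts. The sequence of knockout 1 listed IGHA as its constant region, and so did the clonotype level with that of knockout 4, which listed IGHJ3. Whether the sequence of knockout 1 supplied the 4158 IGHV2-2 reads of that sample was not tested.

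Between samples, 2 of 164 distinct IGHV2 CDR3 nucleotide sequences were found in more than 1 sample, and 4 of 155 as protein. Overlap can be missed with 7 to 43 clonotypes per sample, and 51 of the 166 rested on 1 spanning read. The rate over all families is not given here. The first of the 2 joined controls 1 and 2 and the second control 3 and knockout 3, with capitals as before:
controls 1 and 2: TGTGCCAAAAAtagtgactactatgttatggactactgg
control 3 and knockout 3: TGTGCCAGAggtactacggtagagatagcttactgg
The first had 2 and 1 spanning reads and the second 7 in control 3 and 1 in knockout 3.

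The CDR3 of IGHV2 clonotypes was 6 to 21 amino acids long. The mean length per sample was 12.98, 13.1, 12.4 and 13.7 amino acids in the controls and 12.7, 13.5, 12.6 and 11.8 in the knockouts, ranges that overlap widely. The group means were 13.04 ± 0.542 and 12.63 ± 0.704 (SD, n = 4 each, two-sided exact permutation p = 0.40). Weighted by CDR3-spanning reads the difference of -0.41 turned to 0.10. Against all other single-family clonotypes of the same sample, IGHV2 junctions were shorter in 6 of 8 samples, with means of 12.8 and 13.4 amino acids, which did not pass (exact permutation p over signs = 0.0781, adjusted 0.156).

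A JH gene was listed for 124 of the 166 IGHV2 clonotypes, 81 of 119 in the controls and 43 of 47 in the knockouts, so more were missing in the controls. The 4 JH segments lie downstream of the D segments in the order of their numbers. IGHJ2 was used by 34.5%, 31.6%, 33.3% and 27.8% of these clonotypes in the controls and by 25.0%, 12.5%, 14.3% and 25.0% in the knockouts. Every knockout was below every control, but the knockout values rested on 3 of 12, 2 of 16, 1 of 7 and 2 of 8 clonotypes. The means were 31.8% ± 2.93 and 19.2% ± 6.74 (SD, n = 4 each), with an exact permutation p of 0.0286 that did not pass after adjustment (0.114 over the 4 JH genes, 0.157 over 11 readouts). When the JH gene was read from the last 12 bases of the CDR3 in place of the contig's list, 126 of the 166 clonotypes were assigned. The groups then overlapped, at 25.8% ± 8.33 and 16.9% ± 6.65 (exact permutation p = 0.171). By listed gene, the other single-family clonotypes used IGHJ2 at 43.3% to 51.8% in the controls and 29.0% to 47.1% in the knockouts. There too knockouts 1, 2 and 3 were below all controls, while knockout 4 was among them. Whether the fall was larger in IGHV2 was not tested.

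The other JH genes showed no difference that passed. IGHJ3 was used by 23.9% ± 7.25 in the controls and 37.2% ± 19.4 in the knockouts (exact permutation p = 0.257), with knockouts 3 and 4 highest at 57.1% and 50%. IGHJ4 stood at 29.4% ± 7.36 and 26.5% ± 23.3 (exact permutation p = 0.83), with 8 of 16 in knockout 2 and 0 of 8 in knockout 4. IGHJ1 stood at 14.9% ± 1.59 and 17.1% ± 5.53 (exact permutation p = 0.629).

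Set against the rest of the repertoire in the same sample, IGHV2 clonotypes used IGHJ2 less. In the controls the other single-family clonotypes used it at 51.8%, 46.7%, 46.2% and 43.3%, and in the knockouts at 33.7%, 40.8%, 29.0% and 47.1%. IGHV2 was lower in 8 of 8 samples, with means of 25.5% ± 8.28 and 42.3% ± 7.58 (SD, n = 8). The difference was -16.8 percentage points (two-sided exact permutation p over signs = 0.00781, the smallest that 8 samples allow, adjusted over 6 measures 0.0469). This comparison was chosen after the values had been seen. By the last 12 bases of the CDR3 the means were 21.3% and 42.5%, lower in 8 of 8 samples (exact permutation p = 0.00781, adjusted over the 4 JH genes 0.0312), and with 1 sample left out the difference by listed gene ran from -18.0 to -15.2.

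The other JH genes stood in a different order by the 2 readings. By listed gene, IGHJ3 was higher in IGHV2 clonotypes in 6 of 8 samples (30.5% against 19.0%, exact permutation p = 0.0625) and IGHJ4 in 5 of 8 (28.0% against 25.2%, exact permutation p = 0.594), while by the CDR3 end IGHJ4 was higher in 7 of 8 (31.3% against 20.7%, exact permutation p = 0.0156, adjusted 0.0312). Against IGHV5 clonotypes alone, which numbered 3 to 46 per sample, IGHV2 was lower in IGHJ2 in 4 of 8 samples (25.5% against 32.4%, exact permutation p = 0.50), so the difference was not shown against this neighbouring family. The mean number of spanning reads per clonotype was 3.34 for IGHV2 and 3.33 for the others (exact permutation p = 0.992).

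**Figure D5:**
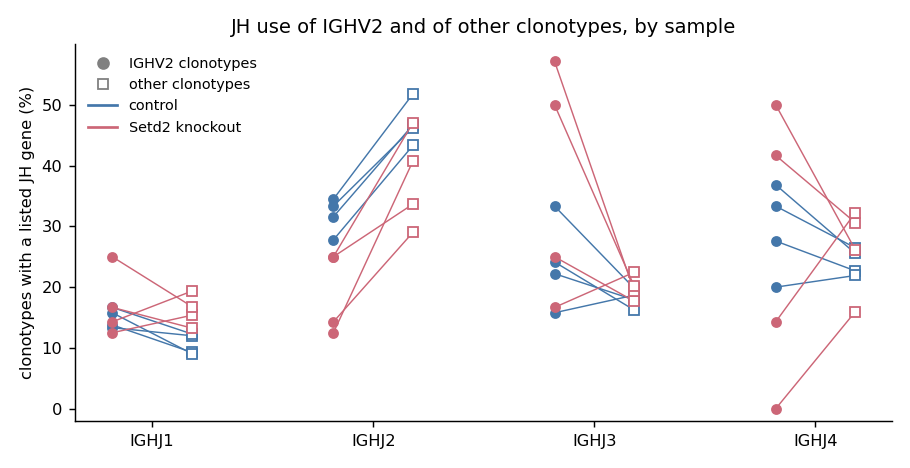
Percent of clonotypes with a listed JH gene that used each of the 4 JH genes, with a line joining IGHV2 clonotypes (filled circles) to all other single-family clonotypes (open squares) of the same sample. For IGHJ2 all 8 lines rise from IGHV2 to the others, from a mean of 25.5% to 42.3%, whereas lines cross for the other JH genes.

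IGHV5 is the other family beside the D segments. The ratio of IGHV2 to IGHV5 reads was 0.427, 0.783, 0.786 and 0.651 in the controls and 4.13, 1.38, 1.19 and 0.0141 in the knockouts. Knockouts 1, 2 and 3 were above all controls and knockout 4, in which IGHV5 held 31.6% of VH reads, was below them. The knockout over control fold of geometric means was 0.865 (two-sided exact permutation p = 1), or a log2 difference of -0.21, which was 1.56 without knockout 4. Counted as clonotypes with 0.5 added to each family the log2 difference was 0.59 (exact permutation p = 0.314).

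The 3 VH genes outside the family that were most like it across the 8 samples were all of IGHV1. Families 1 and 8, listed here as distal, made up 79 of the 130 tested VH genes. By Pearson correlation of log2(share of VH reads in percent + 0.01), the nearest outside the family were IGHV1-7 (r = 0.878), IGHV1-53 (r = 0.873) and IGHV1-62 (r = 0.811), all described over 8 samples that share 1 total. IGHV1-53 stood at 8.91% in knockout 1 and 0.812% in knockout 4, the samples in which IGHV2 was highest and lowest. IGHV1-7 and IGHV1-62 were also lowest in knockout 4, at 0.338% and 0.152%. Their highest values were in other samples than knockout 1, at 3.36% in knockout 3 for IGHV1-7 and 1.415% in control 2 for IGHV1-62. Of all VH genes, the one most like IGHV2-2 was IGHV2-4 (r = 0.997).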

How the data were processed

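The labels' protocols give poly-A RNA of sorted pro-B cells, read as 75-base single-end reads. Per the submitters' processing notes, alignment used STAR 2.5.1 on mm10, and junctions were assembled with TRUST, per the series design text. The authors deposited, per sample, read counts per gene segment and a contig table. Per the file headers and their values, these counts are whole and were not normalized. The authors' expression score per contig, multiplied by the CDR3 length in bases (at least 48), gave a whole number within 0.01 for 100% of 7166 contigs and is used as CDR3-spanning reads. The depth of the whole libraries is unknown.

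Segments with at least 10 reads over the 8 samples entered edgeR 4.0.16 (R 4.3.3, quasi-likelihood test, library size the VH reads, Benjamini-Hochberg adjusted p under 0.05 over 130 VH genes). Values per sample were compared by two-sided exact permutation tests. Intervals are 95% Wilson intervals and cover counting error only. V and J sequences came from GENCODE M21, on the same build. Python 3.11.15, numpy 2.4.6, pandas 2.3.3, scipy 1.17.1 and matplotlib 3.10.9 were used. No 2 samples of a group held the same counts within sampling noise.

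All IGHV2 segments are accounted for, and those with at least 10 reads are described. Likeness names the 3 VH genes of highest correlation with the family and the 1 nearest to IGHV2-2, and clonotypes shown are the largest per sample and those found in more than 1. Other VH genes were listed as IGHV5, intermediate (families 3, 4, 6, 7 and 9 to 16) and distal (1 and 8). Members, lists and tests were chosen with earlier results of these data known. Alternatives were each sample left out, a replicate block, DESeq2 1.42.0, and other scalings, filters and clonotype definitions. Added after seeing the data were IGHV2 without IGHV2-2 and IGHV2-4, incomplete contigs, the JH gene by the last 12 bases of the CDR3, and the comparison with other clonotypes of the same sample.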

Additional observations from a re-analysis of the deposited data

Results flagged for a closer look

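In 1 of 38 groups of 4 samples tested for a sample far from the others, a sample stood apart. The IGHV2 share of CDR3-spanning reads in knockout 4 was 2.21%, and the nearest other knockout was at 11.9%, a gap that made up 0.832 of the group's range, just past Dixon's 95% limit for 4 samples. By chance about 1 in 20 such groups would be marked. Knockout 4 also had the lowest IGHV2 share of VH reads, 0.446%, and IGHV5 held 31.6% of its VH reads.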

How the results depend on the processing

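With 1 sample left out, 0 of the 8 IGHV2 genes were called each time. The difference ran from -0.0787 to 9.06 percentage points for the share of VH reads, from 2.99 to 5.91 for the share of clonotypes and from 4.27 to 8.15 for the share of spanning reads. The log2 difference of clonotype number alone ran from -1.55 to -1.16 with an exact permutation p of 0.0571 every time, the smallest that 35 arrangements allow. For the JH genes the difference in percentage points ran from -0.41 to 3.75 (IGHJ1), -14.5 to -10.4 (IGHJ2), 6.68 to 20.2 (IGHJ3) and -10.8 to 5.88 (IGHJ4). IGHJ1 turned without knockout 4, and IGHJ4 turned without knockout 3 (1.11) or knockout 4. The log2 IGHV2 to IGHV5 ratio ran from -1.17 to 1.56 and turned without knockout 4. The log2 fold change of IGHV2-9-1 ran from -0.49 (without knockout 1) to 1.36.

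Same-numbered samples were not treated as pairs, since the labels give no shared source and not every correlation was over 0.1. The correlations were 0.175, 0.148, 0.0882 and 0.0985, and 3 of 4 knockouts were most like the control of their own number. With the replicate number as a block, edgeR called 1 IGHV2 gene, IGHV2-6 (log2 fold change -2.99, adjusted p = 0.0487), beside 15 of all 130, and IGHV2-9-1 turned to -0.22. For clonotype number (-1.38) and IGHJ2 use (-12.6), whose size a block cannot change here, the exact permutation p was 0.125, the smallest that 4 pairs allow.

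Other settings moved these values, and the causes were not tested. With all locus reads as library size edgeR called 1 member, IGHV2-6 (-3.46, adjusted p = 0.0271), and 26 of all genes. Clonotype number relative to locus reads was -0.42, and with at least 2 spanning reads -1.26 (exact permutation p = 0.0571). IGHJ2 use was -16.8 weighted by spanning reads (exact permutation p = 0.0857), -12.8 with any listed IGHV2 gene (p = 0.286 by exact permutation) and -8.92 by the last 12 bases, where IGHJ4 turned to 1.92. Mean CDR3 length turned to 0.0991 weighted by reads. The share of VH reads turned to -0.0061 as log2. The ratio to IGHV5 turned to 0.59 as clonotypes and to 0.24 without IGHV2-2 and IGHV5-9-1. IGHV2-3 turned to 0.43 with TMM and 0.56 with DESeq2. Counts of all VH genes called were 0 with TMM, 6 with DESeq2, 6 with no filter and 4 at 50 reads. Depth limits knockout 3 most, with 154 IGHV2 reads and 7 clonotypes.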
